A study of Mus musculus with 4 samples.

Results

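The vascular endothelial growth factor (VEGF) family was examined in a pair of mouse stromal cell lines through 4 ligand genes, Vegfa, Vegfb, Vegfc and Pgf, and 3 receptor genes, Flt1, Kdr and Flt4. The members were all probe sets (groups of short probes that read the same transcript) that the array annotation maps to 1 of these genes alone, which gave 14 of the 45037 probe sets tested and 7 of the 18193 genes. OP9M2, a line of mesenchymal stem cells grown from 1 clone of OP9 stroma, sustains human hematopoietic stem and progenitor cells in co-culture and was grown with 20% fetal bovine serum. BFC012 is a fibroblast line from mouse fetal liver that does not sustain them, and it was grown with 10% serum, so the effects of line and serum cannot be told apart. Both lines were irradiated with 2000 rad, plated at 25000 cells per square centimetre and harvested 48 hours later, so no unirradiated cells were measured. Each line was represented by 2 Affymetrix mouse arrays, which the labels call biological replicates, each from the total RNA of 1 culture plate. Nothing states how separate the cultures were, so the p-values measure the spread between these arrays.

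VEGF ligands are secreted dimers that bind receptor tyrosine kinases, mainly on endothelial cells. VEGF-A, the product of Vegfa, acts on both VEGFR1 (Flt1) and VEGFR2 (Kdr), VEGF-B and placental growth factor (Pgf) bind VEGFR1, and VEGF-C binds VEGFR3 (Flt4) and, once processed, VEGFR2. VEGFR2 carries most of the growth signal in blood vessels, VEGFR1 binds VEGF-A tightly and is also made as a soluble form that traps the ligand, and VEGFR3 guides lymphatic vessels. In bone marrow and fetal liver, stromal cells are a source of the ligands, while the sinusoidal endothelium carries the receptors.

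Values are on a log2 scale, read as the natural logarithm of the deposited intensity because the deposited values exceeded what a scanner can give. The background level was 6.09 log2 units, the 95th percentile of 81 probe sets that read odorant, pheromone or trace amine receptors, and a value below it gives only an upper bound. A probe set was called when limma gave an adjusted p under 0.05 over all 45037 probe sets and the lines differed by at least 1 log2 unit, a 2-fold change, and differences are OP9M2 minus BFC012 ± SE with 2 arrays per line. Levels of different probe sets are not comparable. The arrays of BFC012 lay closer together than those of OP9M2 (median absolute gap of 0.16 and 0.22 log2 units), and the poly-A labelling controls averaged 7.45 and 4.0 on OP9M2 replicates 1 and 2, against 6.90 and 6.04 on the BFC012 arrays. The gap between the 3′ and 5′ probe sets of the actin control, a measure of RNA integrity, was 0.39 and 0.15 in OP9M2 and 0.25 and 0.20 in BFC012. Because OP9M2 replicate 2 stood apart in its labelling controls, results are also given without it where they change.

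Among the ligands Pgf was higher in OP9M2 (5.14-fold), all 3 probe sets of Vegfc lay above BFC012 without being called, Vegfb differed by 0.92 and Vegfa did not pass the test. Among the receptors Flt1 lay lower in OP9M2 on all 4 of its probe sets, 2 of which were called, Flt4 was called lower on 1 of its 2 probe sets, and Kdr did not pass the test. In all, 4 of the 14 member probe sets were called, 1 higher and 3 lower, beside 4.46% of all probe sets called (1.8% higher and 2.66% lower). The 2 lines did not overlap on 11 of the 14, beside 49.5% of all probe sets, and 9 had an unadjusted p under 0.05, beside 19.4%. The median absolute difference of the members was 1.24 log2 units, against 0.20 over all probe sets. Below background on all 4 arrays were 20126 of the 45037 probe sets and 2 of the 14 members, which limits this comparison and the shares above. The 7 ligand probe sets all had a positive difference (median 1.32), and 5 of the 7 receptor probe sets had a negative one (median -1.16), while the median over all probe sets was 0.038. Probe sets of the same gene are not separate evidence, and 3 of the 7 ligand ones read Vegfc and 4 of the 7 receptor ones Flt1. The ligand median is the value of Vegfc 1419417_at, below background on all 4 arrays, and the receptor median that of Flt1 1451756_at.

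**Figure D1:**
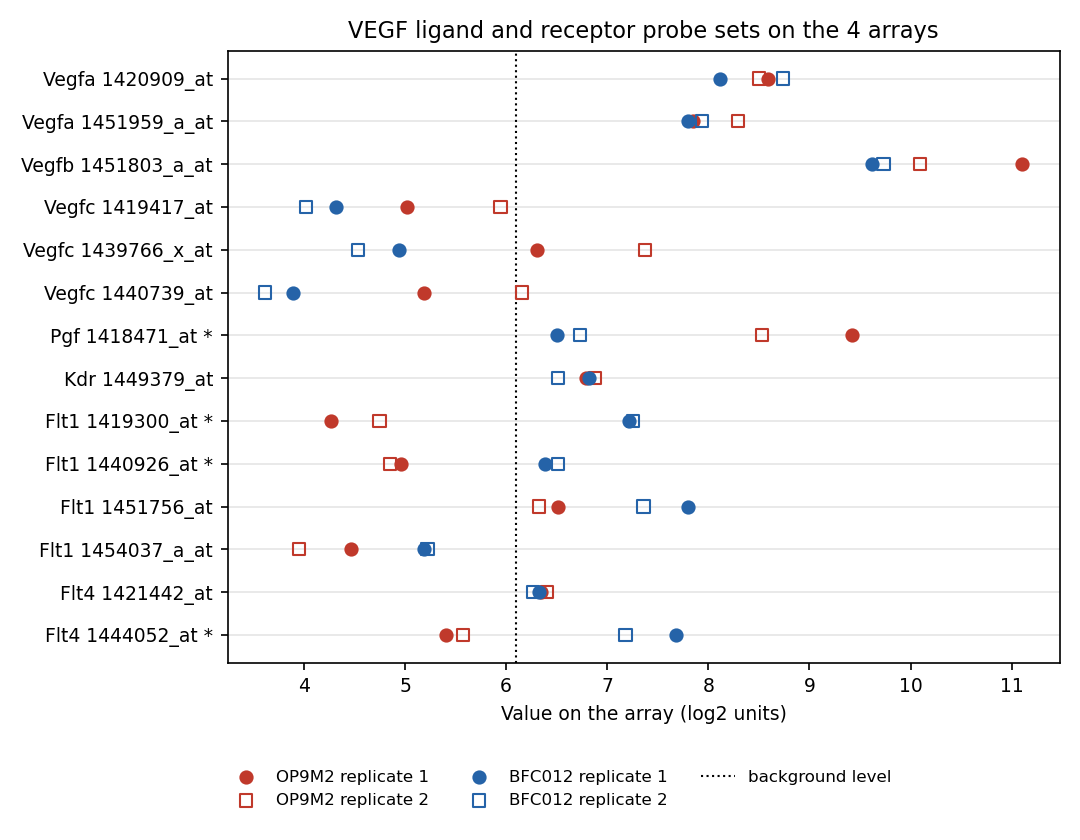
Log2 value (horizontal axis, log2 units) of the 14 member probe sets (rows) in the 4 arrays, with OP9M2 in red and BFC012 in blue, filled circles for replicate 1, open squares for replicate 2, a dotted line at the background level of 6.09 and an asterisk at the 4 called probe sets. The OP9M2 arrays read 9.42 and 8.53 for Pgf, against 6.50 and 6.73 on the BFC012 arrays, and the 4 rows of Flt1 lie further left in OP9M2 than in BFC012.

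**Figure D2:**
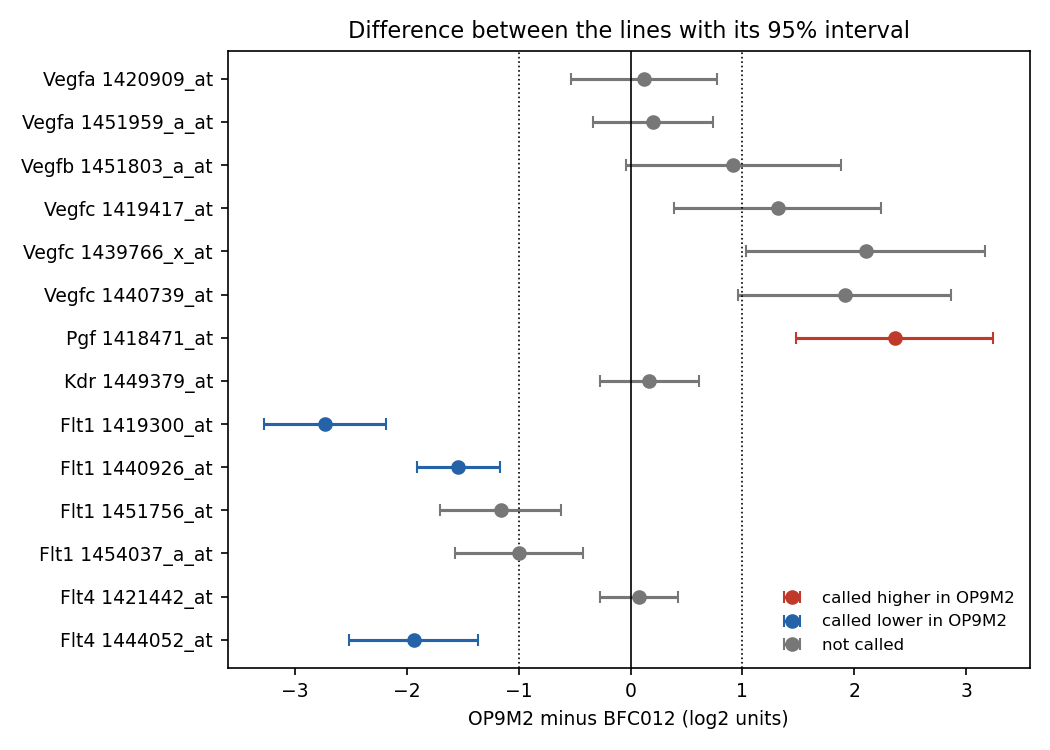
Difference OP9M2 minus BFC012 (horizontal axis, log2 units) of each of the 14 member probe sets (rows), with its 95% interval as a bar; red and blue mark probe sets called higher and lower in OP9M2, grey those not called, and the dotted lines mark 1 log2 unit either way. The intervals of both Vegfa probe sets, of Vegfb, of Kdr and of 1 Flt4 probe set include 0.

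Among the called members and Kdr, a search of promoter letters found some core elements in Flt1 only. Their promoter windows are shown, for Pgf the first of 2. They come from the RefSeq annotation of GRCm38.p6 and run from 250 bases before to 50 bases after a transcription start, on the strand of the gene: Pgf at chr12:85177264-85177563 (minus strand), Flt1 at chr5:147725962-147726261 (minus strand), Flt4 at chr11:49609429-49609728 (plus strand) and Kdr at chr5:75978406-75978705 (minus strand). Capitals mark matches on either strand to a TATA box (TATAAA), a cyclic AMP response element (TGACGTCA), a GC box (GGGCGG) or the core of a hypoxia response element (ACGTG).
Pgf: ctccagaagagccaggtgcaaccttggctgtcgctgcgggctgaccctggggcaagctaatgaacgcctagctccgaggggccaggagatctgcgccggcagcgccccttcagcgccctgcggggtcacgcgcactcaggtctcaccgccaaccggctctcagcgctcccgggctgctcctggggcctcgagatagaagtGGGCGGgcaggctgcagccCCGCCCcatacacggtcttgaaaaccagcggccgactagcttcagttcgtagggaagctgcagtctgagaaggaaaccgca
Flt1: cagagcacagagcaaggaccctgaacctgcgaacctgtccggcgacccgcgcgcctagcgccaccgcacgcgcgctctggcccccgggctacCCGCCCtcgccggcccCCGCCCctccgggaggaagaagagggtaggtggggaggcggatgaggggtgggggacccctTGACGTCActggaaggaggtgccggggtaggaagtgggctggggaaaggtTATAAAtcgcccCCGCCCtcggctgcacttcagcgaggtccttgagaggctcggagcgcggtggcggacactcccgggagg
Flt4: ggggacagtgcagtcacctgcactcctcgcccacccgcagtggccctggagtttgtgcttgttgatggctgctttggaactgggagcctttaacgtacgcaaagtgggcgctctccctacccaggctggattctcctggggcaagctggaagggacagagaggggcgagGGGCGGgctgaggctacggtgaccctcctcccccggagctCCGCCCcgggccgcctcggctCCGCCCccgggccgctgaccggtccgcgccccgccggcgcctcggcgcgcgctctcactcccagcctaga
Kdr: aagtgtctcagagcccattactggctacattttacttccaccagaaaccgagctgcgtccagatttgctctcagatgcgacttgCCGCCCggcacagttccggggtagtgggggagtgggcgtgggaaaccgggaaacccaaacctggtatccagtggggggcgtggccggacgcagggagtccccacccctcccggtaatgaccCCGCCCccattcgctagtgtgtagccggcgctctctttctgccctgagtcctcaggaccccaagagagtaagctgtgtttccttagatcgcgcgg

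All 7 members had a window, and Vegfa and Pgf had 2 each, so that 9 windows were searched. The Flt1 window alone held a TATA box, with its first base 31 bases before the start, and a cyclic AMP response element, 81 bases before it; of all 32851 RefSeq windows 13.6% and 1.79% held these letters. A GC box was in 8 of the 9 windows and in 35.7% of all, and the windows of the members had a GC content of 59.3% to 75.3%, against a median of 52.7% over all windows. The hypoxia core was in 1 of the 9, the second window of Vegfa (chr17:46025114-46025413, minus strand), and in 19.6% of all. No matches of different motifs overlapped in the members. These matches describe the letters of the windows only.

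Pgf, which encodes placental growth factor, a ligand of VEGFR1 only, was measured by 1 probe set (1418471_at). It read 9.42 and 8.53 on the OP9M2 arrays, against 6.50 and 6.73 on the BFC012 arrays. Every OP9M2 array lay above every BFC012 array, and all 4 values were above background. The difference was 2.36 ± 0.33, or 5.14-fold (limma adjusted p = 0.0354). In whole cultures a higher share of cells that make a transcript and more of it per cell cannot be told apart. The difference was 2.81 without OP9M2 replicate 2 (adjusted p = 0.00356) and 1.92 without OP9M2 replicate 1 (adjusted p = 0.0110). Without BFC012 replicate 1 or 2 it was 2.25 and 2.48 and was not called (adjusted p = 0.354 and 0.323), the spread then resting on the OP9M2 pair.

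Vegfc encodes VEGF-C, the ligand that drives the growth of lymphatic vessels, and it was read by 3 probe sets. The probe set with the highest values (1439766_x_at) read 6.31 and 7.37 in OP9M2, against 4.94 and 4.54 in BFC012, at least 1.68-fold (measured difference 2.10 ± 0.40, limma adjusted p = 0.0706). Both OP9M2 arrays were above background and both BFC012 arrays below it, and the x in its name marks probes that may also bind other transcripts. The probe set 1440739_at read 5.18 and 6.15 in OP9M2, against 3.89 and 3.62 in BFC012 (1.91 ± 0.36, adjusted p = 0.0678), and 1419417_at read 5.02 and 5.95 in OP9M2, against 4.32 and 4.02 in BFC012 (1.32 ± 0.35, adjusted p = 0.139). The lines did not overlap on any of the 3, but only 1 value of the first of these 2 and none of the second was above background. OP9M2 replicate 2 read higher than replicate 1 on each of them, by 0.92 to 1.07. Without OP9M2 replicate 1 the differences were 1.78 to 2.63, and without replicate 2 they were 1.57, 1.43 and 0.85 in the order above. The spread in these fits rested on the BFC012 pair alone, so calls gained in them are no support for a difference. With an intensity trend in the prior variance 1440739_at was called (adjusted p = 0.0477).

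Vegfb encodes VEGF-B, a ligand of VEGFR1 known for its part in heart and fat tissue. It read 11.10 and 10.09 in OP9M2, against 9.62 and 9.73 in BFC012. The OP9M2 arrays were 1.01 apart and both lay above the BFC012 arrays. The difference of 0.92 ± 0.36 was not called (limma adjusted p = 0.279, 95% interval -0.045 to 1.88). Without OP9M2 replicate 2 it was 1.42 and without OP9M2 replicate 1 it was 0.41, the spread then resting on the BFC012 pair.

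Vegfa encodes VEGF-A, the main angiogenic ligand and a known target of hypoxia-inducible factors. Its probe set 1420909_at read 8.59 and 8.50 in OP9M2, against 8.12 and 8.74 in BFC012, so that both OP9M2 values lay between the BFC012 values. Its other probe set (1451959_a_at) read 7.85 and 8.30 in OP9M2, against 7.80 and 7.93 in BFC012. The differences were 0.12 ± 0.25 (limma adjusted p = 0.863, 95% interval -0.53 to 0.77) and 0.20 ± 0.20 (adjusted p = 0.681, 95% interval -0.33 to 0.74). All 8 values were above background. Both intervals leave out a 2-fold difference on the scale used here, but their upper limits pass it if log2 of the deposited values is taken. The sign of the first turned without BFC012 replicate 1 (-0.19) and that of the second without OP9M2 replicate 2 (-0.021).

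Flt1 encodes VEGFR1, which binds VEGF-A, VEGF-B and placental growth factor, and it was lower in OP9M2. Its probe set 1419300_at read 4.27 and 4.75 in OP9M2, against 7.22 and 7.26 in BFC012. The OP9M2 arrays were below background and the BFC012 arrays above it, which makes the fold at least 2.21 (measured difference -2.73 ± 0.21, limma adjusted p = 0.00757). The same held for 1440926_at, which read 4.96 and 4.85 in OP9M2, against 6.38 and 6.51 in BFC012 (-1.54 ± 0.14, at least 1.28-fold, adjusted p = 0.0117). The other probe sets were not called. The probe set 1451756_at, the only one above background on all 4 arrays, read 6.51 and 6.32 in OP9M2, against 7.79 and 7.36 in BFC012 (-1.16 ± 0.20, adjusted p = 0.0583). Last, 1454037_a_at read 4.47 and 3.95 in OP9M2, against 5.18 and 5.22 in BFC012 (-0.99 ± 0.22, adjusted p = 0.0933), all below background. Both OP9M2 arrays lay under both BFC012 arrays on each of the 4. Which probe sets read the membrane-bound and which the soluble form of VEGFR1 is not given in the sources used here. Without BFC012 replicate 1 or 2 the first probe set stood at -2.75 and -2.71, and the second at -1.60 and -1.48. The calls of both were lost, the spread then resting on the OP9M2 pair. The probe set 1454037_a_at stood at -1.25 without OP9M2 replicate 1 and at -0.74 without OP9M2 replicate 2. With dim probe sets left out 1451756_at was called (adjusted p = 0.0491).

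Flt4 encodes VEGFR3, the receptor of VEGF-C, and its 2 probe sets disagreed. The probe set 1444052_at read 5.41 and 5.57 in OP9M2, against 7.68 and 7.18 in BFC012, and was called lower (-1.94 ± 0.22, at least 2.53-fold, limma adjusted p = 0.0200). The OP9M2 values were below background and the BFC012 values above it. The other probe set (1421442_at) read 6.34 and 6.40 in OP9M2, against 6.33 and 6.27 in BFC012, all just above background (0.075 ± 0.13, adjusted p = 0.839, 95% interval -0.27 to 0.42). The annotation pairs 1421442_at with a RefSeq transcript of Flt4 and gives no accession for 1444052_at, so the call on Flt4 rests on a probe set whose source transcript is not known here. Without BFC012 replicate 1 or 2 the call was lost (adjusted p = 0.183 and 0.144).

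Kdr encodes VEGFR2, the main signalling receptor of endothelial cells, and it lies on the same chromosome as Flt1. It read 6.79 and 6.88 in OP9M2, against 6.82 and 6.52 in BFC012. The lines overlapped, and every value was less than 1 log2 unit above background. The difference was 0.17 ± 0.17 (limma adjusted p = 0.682, 95% interval -0.28 to 0.61). This interval leaves out a 2-fold difference of the array values in either direction. So near background it does not bound the difference in the transcript.

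When each gene stood by its brightest probe set (highest average of the 4 arrays), Pgf was called higher and Flt4 lower, 2 of the 7 genes, beside 5.91% of all genes called (2.36% higher and 3.56% lower). The lines did not overlap for 5 of the 7, beside 53.2% of all genes, and 4 had an unadjusted p under 0.05, beside 23.3%. Flt1 then stood by 1451756_at, which missed the threshold. With the mean over the probe sets of a gene the called genes were again 2, but they were Pgf and Flt1. Values below background enter these means for Vegfc, Flt1 and Flt4, so the size of those differences is not measured.

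**Figure D3:**
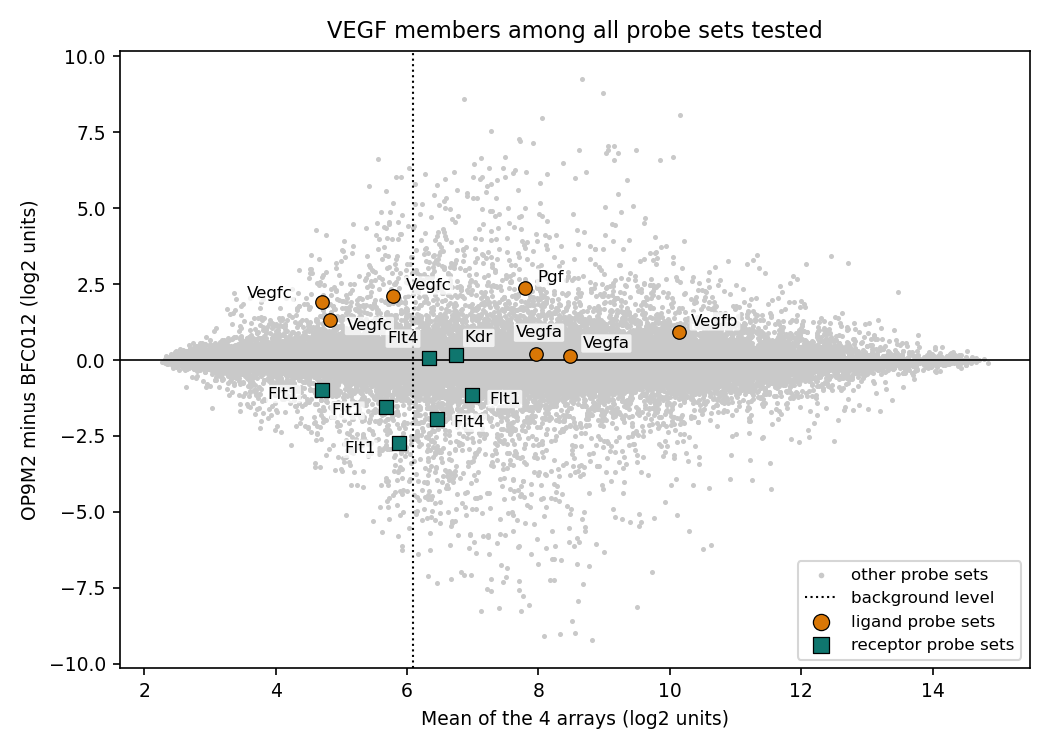
Difference OP9M2 minus BFC012 (vertical axis, log2 units) of 45037 probe sets, by their average over the 4 arrays (horizontal axis, log2 units), with the 7 ligand probe sets as orange circles, the 7 receptor probe sets as green squares and all others in grey; the dotted line marks the background level of 6.09. The ligands lie at or above 0, and the receptors lie between 0.17 and -2.73, several of them near the background level.

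The spread between replicates was unequal among the members. The ligand probe sets had a median absolute gap of 0.92 log2 units between the OP9M2 arrays, against 0.27 between the BFC012 arrays. For the receptor probe sets these gaps were 0.17 and 0.13, and over all probe sets 0.22 and 0.16. OP9M2 replicate 1 read higher than replicate 2 for Pgf (by 0.89) and Vegfb (by 1.01) and lower for all 3 probe sets of Vegfc. Leaving out OP9M2 replicate 1 moved the count of called member probe sets from 4 to 8 (4 higher and 4 lower), and leaving out OP9M2 replicate 2 moved it to 7 (4 higher and 3 lower). The calls among all 45037 probe sets also went up, to 3210 and 4437 in these fits, against 2008 with all arrays. With either BFC012 array left out the limma calls were lost, among the members and among all probe sets alike. On the 11 member probe sets where the lines did not overlap, leaving out 1 array cannot turn the sign. The sign of Kdr could have turned, as those of Vegfa did, and its difference stayed between 0.014 and 0.32. In the fits without 1 OP9M2 array the spread rested on the BFC012 pair. Calls gained in them, here and below, are therefore no support for a difference.

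**Figure D4:**
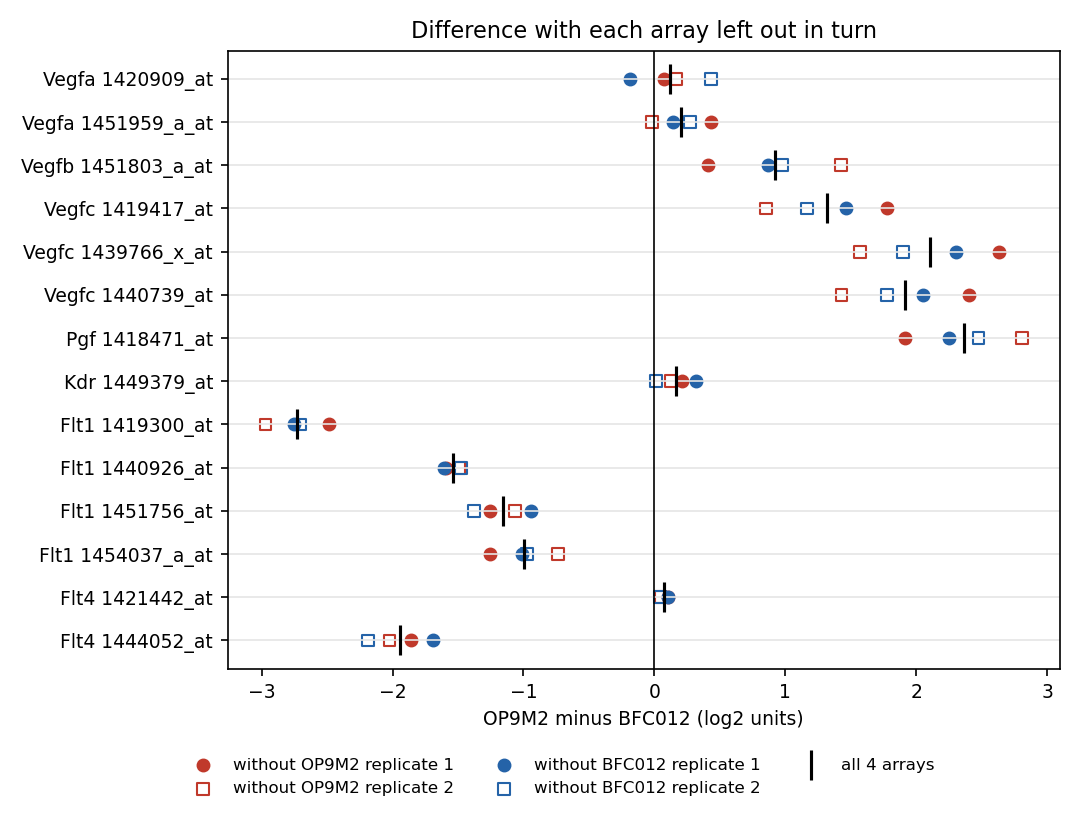
Difference OP9M2 minus BFC012 (horizontal axis, log2 units) of each of the 14 member probe sets (rows) with 1 array left out; red and blue mark an OP9M2 or BFC012 array left out, filled circles replicate 1 and open squares replicate 2, and the black line is the value with all 4 arrays. Flt1 1419300_at stays between -2.97 and -2.49, while Vegfb moves between 0.41 and 1.42.

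The genes whose pattern over the 4 arrays was nearest to that of a called member were found by Euclidean distance after each probe set was centred on its own mean, over 18193 genes. For Pgf these were Dlx4 (distance 0.096), Deptor (0.12) and Gca (0.15). Dlx4, a homeobox gene, read 9.63 and 8.72 in OP9M2, against 6.75 and 6.84 in BFC012, and so repeated the lower second OP9M2 array. For Flt4 they were Hdgfl3 (0.10), Lama5 (0.14) and Trpc1 (0.15). Lama5, a chain of basement membrane laminins, read 8.32 and 8.30 in OP9M2, against 10.47 and 10.00 in BFC012. With 4 arrays such nearness is a description only.

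Of the 2 co-receptors and the remaining ligand 0 were called with limma, and 0 had an unadjusted p under 0.05 on the probe set with the highest mean. Nrp1, which encodes neuropilin 1, a co-receptor of VEGF-A, had values of 12.20 and 11.55 in OP9M2 and 12.32 and 12.53 in BFC012 (-0.55 ± 0.26, limma adjusted p = 0.362), and none of its 4 probe sets was called. The neuropilin 2 gene, Nrp2, which also binds VEGF-C, differed by -0.0019 ± 0.26 (95% interval -0.69 to 0.69). Vegfd, the second lymphatic ligand, read 10.11 and 10.31 in OP9M2, against 9.77 and 10.61 in BFC012 (0.017 ± 0.31). The OP9M2 values lay between the BFC012 values for Vegfd, and those of Nrp2 lay on either side of the BFC012 values.

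Of 17 regulators of Vegfa transcription and mRNA stability, OP9M2 had 1 at a higher level and 2 at a lower one, and the other 14 were not called (median difference -0.11, against 0.032 over all genes). Epas1, which encodes HIF-2α, a hypoxia-inducible factor abundant in endothelium and fat, read 12.62 and 11.35 in OP9M2, against 6.93 and 6.87 in BFC012 (5.08 ± 0.44, 33.8-fold, limma adjusted p = 0.0106). One of its 2 probe sets was called. Hif1a, which encodes the other main oxygen-regulated factor, read 12.80 and 12.20 in OP9M2, against 12.33 and 12.76 in BFC012 (-0.045, adjusted p = 0.965). The transcriptional coactivator gene Ppargc1a (-2.04 ± 0.29, at least 1.84-fold) and Ptgs2, the inducible cyclooxygenase (-3.05 ± 0.45, 8.26-fold), were lower, on 4 of 5 and 1 of 2 probe sets. Zfp36, whose product promotes decay of short-lived mRNAs, had the largest uncalled difference (-0.88 ± 0.80), with OP9M2 values of 10.73 and 8.64, against 10.00 and 11.13 in BFC012.

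Of 14 genes that share HIF control with Vegfa, 4 were higher in OP9M2, 0 lower and 10 not called with limma, with 3 of the uncalled ones at an unadjusted p under 0.05 in the positive direction and 2 in the negative one (median difference 0.44). Adm, which encodes the vasodilator adrenomedullin, read 10.91 and 10.96 in OP9M2, against 5.87 and 6.36 in BFC012 (4.82 ± 0.21, 28.2-fold, limma adjusted p = 0.00209). Bnip3, a mitophagy gene, differed by 2.48 ± 0.29 (5.57-fold), Higd1a, a mitochondrial gene, by 1.07 ± 0.15 and Pdk1, a kinase that turns pyruvate away from mitochondria, by 1.06 ± 0.16. The last pair fell below the 2-fold threshold without OP9M2 replicate 1 (1.00 and 0.95), and Pdk1 was also not called with arrays centred on their medians or an intensity trend (adjusted p = 0.0501 and 0.0747). The largest uncalled difference was in Ndrg1, a stress-response gene, at 6.20 and 7.68 in OP9M2, against 9.52 and 9.64 in BFC012 (-2.64 ± 0.51, adjusted p = 0.0735). Ndrg1 was called lower with dim probe sets left out and without either OP9M2 array (-1.90 and -3.38).

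**Figure D5:**
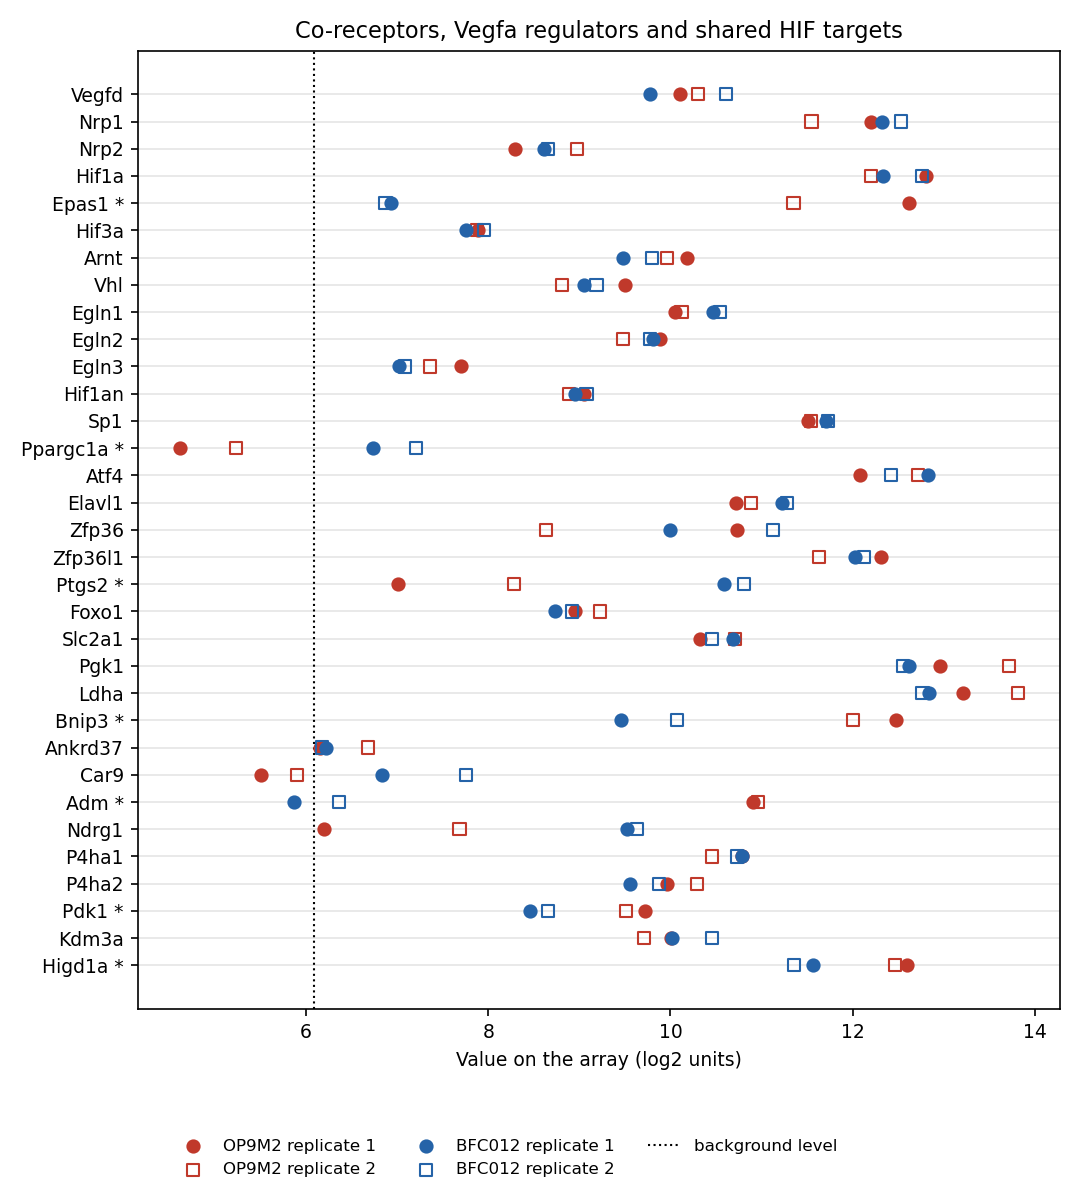
Log2 values (horizontal axis, log2 units) in the 4 arrays of the co-receptors and Vegfd, the regulators of Vegfa and the genes that share HIF control with it (rows); OP9M2 is red and BFC012 blue, circles are replicate 1 and squares replicate 2, the dots run along the background level and an asterisk marks a call. Epas1, Bnip3 and Adm lie higher on both OP9M2 arrays than on both BFC012 arrays, while the values of Hif1a overlap.

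Proteins that cleave, bind or release VEGF ligands included some of the widest differences of the lists. Of 15 measured, 2 were higher in OP9M2, 3 lower and 10 not called (median difference -0.25). Adamts3, the protease that cleaves VEGF-C, read 4.31 and 4.17 in OP9M2, against 7.0 and 7.33 in BFC012 (-2.93 ± 0.18, at least 2.10-fold, limma adjusted p = 0.00426), with 1 of its 2 probe sets called. Its cofactor gene Ccbe1 was called higher (1.06 ± 0.16, adjusted p = 0.0434), but all 4 of its values were below background and 1 of its 4 probe sets was called. Thbs1, whose product thrombospondin 1 restrains VEGF signalling, read 6.91 and 8.24 in OP9M2, against 13.75 and 13.61 in BFC012 (-6.10 ± 0.46, 68.8-fold). Of the metalloproteinases known to free VEGF-A from matrix, Mmp2 was higher (6.81 ± 0.33, at least 92.6-fold), Mmp3 was lower (-6.73 ± 0.52, at least 38.4-fold) and Mmp9 lay below background on all arrays. Adamts1, which binds VEGF-A, was not called (-2.44 ± 0.42, adjusted p = 0.0557). It was called lower with dim probe sets left out, with an intensity trend and without either OP9M2 array (-3.03 and -1.86).

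Of 13 signalling adaptors and phosphatases of VEGF receptors, 0 were higher and 2 lower in OP9M2 with limma, and of the other 11, 0 had a positive and 3 a negative difference at an unadjusted p under 0.05. Grb10, an adaptor gene that is imprinted, read 5.25 and 5.21 in OP9M2, against 11.86 and 12.02 in BFC012 (-6.72 ± 0.14, at least 57.7-fold, adjusted p = 0.00105). Only 1 of its 3 probe sets was called. Shb, an adaptor that binds VEGFR2, differed by -1.52 ± 0.19 (2.86-fold). Ptprj, a phosphatase of VEGFR2, read 3.79 and 6.05 in OP9M2, against 7.89 and 7.98 in BFC012, and was not called (adjusted p = 0.127), although it was without either OP9M2 array (-1.89 and -4.15). Of 15 genes that VEGF induces in endothelium 0 were called higher, 1 lower and 14 not called (median difference 0.074). Of these 14, 2 had a positive and 0 a negative difference at an unadjusted p under 0.05. The called gene was Nr4a2, an orphan nuclear receptor, on 2 of its 6 probe sets (-1.06 ± 0.16, limma adjusted p = 0.0393). Nr4a2 lost the call with an intensity trend (adjusted p = 0.0646). Its relative Nr4a1 read 10.27 and 6.92 on the OP9M2 arrays, against 11.34 and 11.20 in BFC012 (-2.68 ± 1.13), and was not called. Leaving out OP9M2 replicate 1 took the Nr4a1 difference to -4.35, and leaving out replicate 2 took it to -0.999. The size of the Nr4a1 difference therefore rests largely on the low value of the second OP9M2 array. Of 9 genes of the related PDGF receptor and ligand family, Pdgfd was lower on 1 of its 3 probe sets (-3.66 ± 0.43, at least 1.68-fold, adjusted p = 0.0232), and Pdgfra, a receptor of mesenchymal cells, read 12.22 and 10.76 in OP9M2, against 7.77 and 8.48 in BFC012 (3.37 ± 0.56, adjusted p = 0.0513). Pdgfra was called with the arrays quantile normalized again, with dim probe sets left out, with an intensity trend and without either OP9M2 array (2.64 and 4.10).

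Of the 16 endothelial markers 11 were below background on all 4 arrays, among them Pecam1, Cdh5, Tek, Tie1, Emcn and Vwf. Mmrn2 was above it on every array (6.42 and 6.55 in OP9M2, against 6.38 and 6.30 in BFC012), and Cldn5 and Erg were above it on some. The mean level of the 16 was 5.17 and 5.28 in OP9M2, against 5.48 and 5.40 in BFC012, and the part of such cells in the receptor values was not tested. Ecscr, a surface gene of endothelial cells, was the exception with a call (-3.02 ± 0.22, at least 3.74-fold, limma adjusted p = 0.00671), at 4.85 and 5.10 in OP9M2, against 7.77 and 8.23 in BFC012. Egfl7 lay above background on every array (-0.87 ± 0.25), with 1 of its 4 probe sets called, and was called lower without OP9M2 replicate 2 (-1.19). The lymphatic markers Prox1, Lyve1 and Mmrn1 were below background on all arrays, while Pdpn, which fibroblasts also express, was at 10.56 and 10.99 in OP9M2, against 11.91 and 12.07 in BFC012 (-1.22 ± 0.20, adjusted p = 0.0510). Pdpn was called lower with the arrays quantile normalized again or centred on their medians, with dim probe sets left out, with an intensity trend and without OP9M2 replicate 2 (-1.43). Of 9 monocyte and macrophage markers 0 were called with limma, 0 had an unadjusted p under 0.05, and 5 were below background on all arrays, among them Ptprc, Adgre1 and Itgam. Csf1r, the receptor of macrophage colony-stimulating factor, was above background on every array (6.89 and 7.06 in OP9M2, against 7.07 and 6.96 in BFC012), and Cd68, Spi1 and Lyz2 were above it on some. The mean level of the 9 was 5.38 and 5.51 in OP9M2, against 5.41 and 5.35 in BFC012.

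The labelled cell types were checked against mesenchymal markers. Of 14 fibroblast and mesenchymal genes 2, Thy1 and Lum, were below background on all arrays. Col1a2 was higher in OP9M2, at 14.25 and 14.14, against 6.18 and 6.07 in BFC012, near the background level (8.07 ± 0.14). S100a4 was also higher (2.23 ± 0.13), and the proteoglycan gene Dcn was lower on 1 of its 2 probe sets (-6.34 ± 0.35, at least 67.3-fold). The other 11 were not called. The 7 measured surface markers by which mesenchymal stem cells are sorted each had at least 1 array of each line above background. Of these, Eng, which encodes the co-receptor endoglin, also made by endothelium, was lower (-1.88 ± 0.20, 3.67-fold, limma adjusted p = 0.0175), and Nt5e, at 6.34 and 7.79 in OP9M2 and 8.76 and 8.72 in BFC012, was called lower only without OP9M2 replicate 2 (-2.40). None of the genes named in these lists was called without BFC012 replicate 1 or 2.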

How the data were processed

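Total RNA of irradiated OP9M2 and BFC012 cells was amplified with an Ambion kit and hybridized to 4 Affymetrix mouse expression arrays. The authors deposited 1 intensity per probe set and array, made with RMA through affy, of unstated version and settings. Up to 6.57% of the intensities on an array exceeded 65535, the largest value of a scanner, while the natural logarithm ran from 2.06 to 14.9, as RMA values in log2 units do. The natural logarithm was therefore read as the log2 value; the base used by the authors is not stated, and with log2 of the deposited values each difference would be 1.44 times as large.

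Of 45101 probe sets, 64 array controls were left out. In the array annotation 34945 probe sets named 1 gene, 932 several and 9160 none. Symbols were updated through the mouse RefSeq gene table (GRCm38.p6), where 34741 matched and 204 did not. Differences were tested two-sided by the lmFit and eBayes functions of limma 3.58.1 under R 4.3.3 (no covariate, 2 residual and 2.50 prior degrees of freedom), with Benjamini-Hochberg adjustment over 45037 probe sets, and called at the false discovery rate and fold that the study names for clustering its human cell data (none is named for these lines). The test was checked on simulated data. Where a line was below background on both arrays, the fold was computed with its values raised to the background level and is given as "at least". Intervals are 95% intervals of the moderated test. The number of arrays limits the precision.

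A gene stood by its probe set with the highest mean. Genes named beside the members are those called in each list, the uncalled gene with the largest absolute difference, and the 3 nearest in pattern to a called member. Hif1a, Nrp2, Vegfd, Mmp9, Csf1r, Cd68, Spi1, Lyz2, Mmrn2, Cldn5, Erg and the cell type markers given as below background were named in addition after their values were seen. The members and the gene lists were chosen with earlier results of these data known. The listed genes Ptk2, Cd63, Fbn1 and Ly6a were not analysed here. Alternatives were log2 of the deposited values, quantile normalization again, centring on array medians, a filter on dim probe sets (above background on at least 2 arrays), an intensity trend or robust prior, no minimum difference, the mean of the probe sets of a gene, each array left out and the replicate number as a block.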

Additional observations from a re-analysis of the deposited data

How the results depend on the processing

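The 4 called member probe sets kept their call with quantile normalization again, median centring and the filter on dim probe sets. They also kept it with an intensity trend or a robust prior. Neither log2 of the deposited values nor no minimum difference could lose a call. The first leaves the p-values unchanged and widens each difference, and the second only loosens the rule. With the filter 6 of the 11 member probe sets tested there were called, beside 2095 of all 23526. By gene these were 4 in place of 2, Flt1, Flt4, Pgf and Vegfc, and no share over all genes was computed in that fit. Vegfc 1439766_x_at, Flt4 1444052_at and the 2 probe sets of Flt1 called in the main fit passed that filter only through the line where they are high. Their calls in it are therefore no support. With 1 array left out the count of member probe sets lay between 0 and 8, of member genes between 0 and 4, of other listed genes between 0 and 31 (21 of 132 with all arrays) and of all probe sets between 0 and 4437 (2008 with all arrays). The lone array of a line was assumed to vary like the other line. Without BFC012 replicate 1 or 2, where limma called 0, 7 of the 14 member probe sets, 4 of the 7 member genes, 34 and 37 listed genes and 4568 and 4517 probe sets had an unadjusted p under 0.05. With 1 array left out, Vegfa 1451959_a_at (-0.021 to 0.43) and Zfp36 (-1.93 to 0.17) changed sign without OP9M2 replicate 2, and Vegfa 1420909_at (-0.19 to 0.43) without BFC012 replicate 1. The cause was not tested.

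Replicates of the same number share only a number (the correlation of their deviations was -0.10). With the replicate block 1 member probe set (Flt1 1419300_at), 0 member genes, 12 other listed genes and 707 probe sets were called. An unadjusted p under 0.05 was found for 9 of 14 member probe sets and 4 of 7 member genes, beside 7324 of all 45037 probe sets. With the pairing crossed, an alternative chosen after seeing the data, the counts of calls in the same order were 5, 3, 13 and 1377. Values near the background level of 6.09 carry no order, which limits Vegfc, Kdr, Flt1 and Flt4.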
